A study of Homo sapiens with 4 samples.

Results

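Thrombospondins and their receptor CD36 were followed in the triple-negative breast cancer line MDA-MB-231, with and without knockdown (KD) of the ETS transcription factor ELK3. The members were all probe sets whose annotation names exactly 1 of the 6 genes THBS1, THBS2, THBS3, THBS4, COMP and CD36, of 18132 genes measured. There were 15 of them, out of 49395 probe sets in all, with 5 for THBS1, 3 each for THBS2 and CD36, 2 for THBS3 and 1 each for THBS4 and COMP, and no probe set named a member together with another gene. The genes were chosen by the large fall of THBS1 in this very comparison, so the values of the members are given as a description, without a test of their own; the standard errors come from a fit over all probe sets.

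RNA came from 4 cultures of stable lines made with retrovirus and selected with puromycin, 2 with an integrated control shRNA and 2 with an integrated shRNA targeting ELK3, labelled as biological repeats 1 and 2 of each group (replicates 1 and 2 here). The study derived several such lines from MDA-MB-231 cells that carry GFP and luciferase, and the labels do not say which line each array comes from or whether both repeats share a line. The p-values therefore measure only the spread between these arrays, and with 2 arrays per group the smallest p of an exact two-sided permutation test is 0.333. ELK3 itself read 10.85 and 10.82 on the control arrays and 8.34 and 8.33 on the ELK3 shRNA arrays, as log2 values at its brightest probe set.

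Thrombospondins are secreted, calcium-binding glycoproteins of the extracellular matrix that tune how cells attach, migrate and respond to growth factors. THBS1 and THBS2 form trimers and carry type 1 repeats, the modules through which they bind CD36 on endothelial cells and restrain vessel growth, and THBS1 can also free TGF-beta from its latent complex. THBS3, THBS4 and COMP form pentamers, lack type 1 repeats and are best known from cartilage, tendon and muscle. CD36 is a scavenger receptor that also takes up long-chain fatty acids, and it is abundant on platelets, macrophages, adipocytes and endothelial cells of small vessels.

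The arrays carry a limit that bears on every value below. CDKN2A, a cell cycle inhibitor gene of a 9p21 region known to be deleted in this line, read 5.10 and 4.61 on the control arrays and 11.33 and 11.43 on the ELK3 shRNA arrays at its brightest probe set, a difference of 6.53 (4.22 for the mean of its probe sets). CDKN2B, of the same region, read 2.86 and 3.19 against 6.81 and 7.13, and 5 of 6 probe sets of MTAP, another gene there, were higher as well, although its brightest was lower by 0.45 on the log2 scale. Of 5 genes that MDA-MB-231 cells express strongly (VIM, CD44, CAV1, MSN, FN1), all stayed above background in both groups and all were called lower in ELK3 KD cells. Of 6 genes typical of HEK293, a line used to package retrovirus, 5 were called higher. They were NEFL (by 7.58), SOX11 (5.81, and 4.10 for the mean of its probe sets), DPYSL3 (3.63), CDH2 (3.23) and CKB (2.64). The other, PAX2, read 4.48 to 4.69 on all 4 arrays and was not called. Over all genes 23.5% were called lower and 26% higher by limma. The summed level of the 6 ran from 9.35 to 9.51 in control and from 12.78 to 12.85 in ELK3 KD arrays (log2 of the summed values). A response to ELK3 loss and a difference in the identity of the cells cannot be told apart on these arrays.

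Values are log2 intensities after RMA, a method that subtracts background, gives all arrays the same distribution and summarises the probes of a set. No detection call came with them. As a guide to background, the 359 olfactory receptor probe sets were used, with values centred at a median of 3.85 and with 5.71 as their 95th percentile, called the background guide here. The guide has a limit, as MDA-MB-231 is classed as lacking the receptors ESR1, PGR and ERBB2. PGR read 2.71 to 3.04 over the 4 arrays, but ESR1 read 6.83 to 7.12 and ERBB2 7.27 to 7.76. Whether these ESR1 and ERBB2 values come from transcript was not tested. A value moderately above the guide is thus not shown to be expression. In bulk RNA, fewer cells expressing a gene and less RNA per cell cannot be told apart.

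The promoters of THBS1 and THBS2 are shown because they belong to the paralogs that bind CD36 and whose brightest probe sets differed in opposite directions, and because the depleted factor belongs to the ETS family, which binds DNA around a GGAA core. Each runs from 250 bases before to 50 bases after a RefSeq start site (GRCh38.p14), with GGAA, and TTCC where the core lies on the other strand, in capitals. The THBS1 window is chr15:39580829-39581128 on the plus strand and the THBS2 window is chr6:169253797-169254096 on the minus strand.
THBS1: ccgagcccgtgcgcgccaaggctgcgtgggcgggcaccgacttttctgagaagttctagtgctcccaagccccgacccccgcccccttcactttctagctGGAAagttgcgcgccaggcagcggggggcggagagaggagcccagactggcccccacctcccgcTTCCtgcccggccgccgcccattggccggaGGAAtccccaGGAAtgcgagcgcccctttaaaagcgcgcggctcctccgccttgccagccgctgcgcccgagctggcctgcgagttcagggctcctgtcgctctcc
THBS2: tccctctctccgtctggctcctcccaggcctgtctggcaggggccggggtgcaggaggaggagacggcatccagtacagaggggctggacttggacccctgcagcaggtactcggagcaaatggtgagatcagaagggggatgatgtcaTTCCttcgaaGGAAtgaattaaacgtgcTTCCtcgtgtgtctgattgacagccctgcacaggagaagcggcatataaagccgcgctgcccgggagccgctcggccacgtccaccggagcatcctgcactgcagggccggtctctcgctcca
The THBS1 window held 4 GGAA cores over both strands and the THBS2 window held 3, where the median of 35116 RefSeq promoter windows was 3 and 95.5% held at least 1. The longer ETS motif CCGGAA, which contains the core, was in neither, was in 17.2% of all windows, and among the members was found in windows of THBS3, THBS4 and COMP. The CArG box, to which the ELK3 partner SRF binds, was in none of the 13 windows of the 6 member genes and in 1.29% of all windows. TATAA, the core of a TATA box, was in the THBS2 window and not in that of THBS1, against 20.4% of all windows. These matches are a description of letters and say nothing about binding or about sites outside the windows.

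THBS1 was high in control cells and near background after ELK3 knockdown. Its brightest probe set (11721090_at) read 10.48 and 10.70 on the control arrays and 4.77 and 4.49 on the ELK3 shRNA arrays. Both control arrays were far above both ELK3 shRNA arrays, and the control values lay within 0.22 of each other. The difference of means was -5.96 on the log2 scale (SE 0.13 from the limma fit, n = 2 arrays per group), a 62.3-fold lower level. As the ELK3 KD mean of 4.63 (SD 0.20) lay under the background guide, the size of the fall is not settled, and counted down to the guide alone it is 4.88. With each gene read from its brightest probe set, THBS1 was 1 of 16 genes, among 1740 with a control mean above 10, whose ELK3 KD mean lay below the background guide.

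The other THBS1 probe sets went the same way by differing amounts. Probe set 11721092_a_at read 8.72 and 8.97 in control against 3.81 and 3.70 in ELK3 shRNA arrays, a difference of -5.09 (SE 0.11). Probe set 11721093_a_at read 8.14 and 8.58 against 4.44 and 4.47, a difference of -3.91 (SE 0.16). These sets, like the brightest, started well above the guide and ended below it.
Probe set 11721091_a_at read 5.84 and 6.08 in control against 4.17 and 4.44 in ELK3 shRNA arrays, a difference of -1.65 (SE 0.14). Probe set 11758842_at read 5.27 and 5.49 against 3.03 and 3.73, a difference of -2.00 (SE 0.24). Both sets with the smaller differences had control values close to the guide, those of the last under it on all arrays, so background limits the size of the difference there.
All 5 THBS1 probe sets were lower on both ELK3 shRNA arrays with no overlap between groups, where 41.2% of 44988 single-gene probe sets were. Since THBS1 was chosen for its fall, nothing is read from this count. Of the 10 control values of THBS1 8 lay above the guide, and of its 10 ELK3 shRNA values none did. Control replicate 2 was the higher control array at all 5 sets, and the largest gap between replicates at any of them was 0.69.

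**Figure D1:**
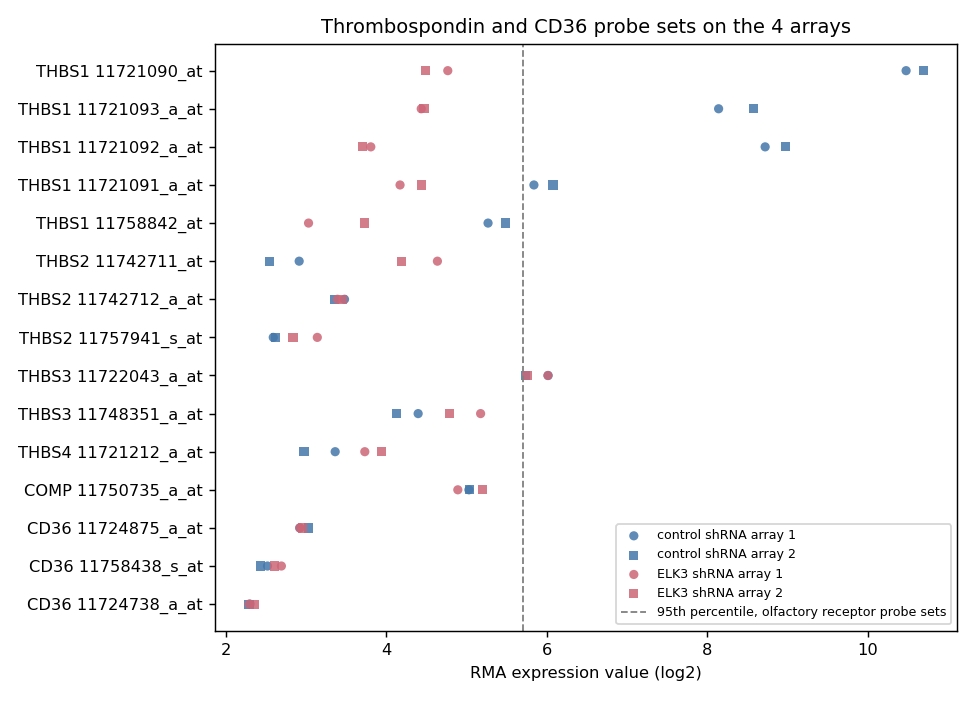
RMA expression values (log2, horizontal axis) of the 15 member probe sets (rows) on 2 control shRNA arrays (blue) and 2 ELK3 shRNA arrays (red), circles for replicate 1 and squares for replicate 2, with the dashed line at the background guide of 5.71. The control values of THBS1 reach 10.70 whereas all its ELK3 shRNA values lie between 3.03 and 4.77, and of the other members only 1 probe set of THBS3 crosses the line.

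THBS2, the closest relative of THBS1 and likewise an inhibitor of vessel growth, did not share its direction. Its brightest probe set (11742711_at) read 2.92 and 2.54 in control against 4.64 and 4.19 in ELK3 shRNA arrays, a difference of 1.68 (SE 0.20). Both ELK3 shRNA arrays were above both control arrays, yet all 4 values lay under the background guide. Probe set 11757941_s_at read 2.59 and 2.62 against 3.14 and 2.84, a difference of 0.38 (SE 0.12), and probe set 11742712_a_at read 3.48 and 3.36 against 3.39 and 3.46, with overlapping groups and a difference of 0.01 (SE 0.09). The mean of the 3 sets differed by 0.69. The THBS2 probe sets thus differed by unequal amounts, all in the range where olfactory receptor probe sets lie, and whether the THBS2 transcript was present in either group could not be judged.

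Of the pentameric thrombospondins, THBS3 was the one nearest to measurable. Its brightest probe set (11722043_a_at) read 6.02 and 5.74 in control against 6.02 and 5.76 in ELK3 shRNA arrays, just above the guide, with a difference of 0.01 (SE 0.14). In both groups replicate 1 was the higher array. A second set (11748351_a_at), under the guide throughout, read 4.40 and 4.13 against 5.18 and 4.79, a difference of 0.72 (SE 0.17) with no overlap, and the mean of both sets differed by 0.36. Read from the brightest set, the sign turned to -0.13 once each array was centred on its median, so THBS3 had no settled direction. MTX1, which neighbours THBS3 on chromosome 1, read 9.08 and 8.91 in control against 9.15 and 9.27 in ELK3 shRNA arrays.
THBS4, known from tendon and injured muscle and nerve, read 3.36 and 2.97 in control against 3.73 and 3.94 in ELK3 shRNA arrays at its single probe set, a difference of 0.67 (SE 0.16). The ELK3 shRNA arrays were the higher ones, with all values under the guide.
COMP, the cartilage oligomeric matrix protein, read 5.03 and 5.04 in control against 4.89 and 5.20 in ELK3 shRNA arrays, a difference of 0.01 (SE 0.12). The ELK3 shRNA arrays lay on either side of the control arrays, and centring turned the sign to -0.12.

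CD36 was dim on every array. Its probe sets ran from 2.29 to 3.03 over all 4 arrays, below the olfactory receptor median of 3.85. The brightest (11724875_a_at) read 2.92 and 3.03 in control against 2.92 and 2.96 in ELK3 shRNA arrays, a difference of -0.03 (SE 0.08). The other sets (11758438_s_at and 11724738_a_at) differed by 0.17 (SE 0.08) and 0.03 (SE 0.08), and the mean of all 3 sets by 0.06. A change of CD36 could therefore not be judged, and the THBS1 difference was found in cells whose CD36 probe sets read at background in both groups.

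Over the 10 probe sets of the members other than THBS1, differences ran from -0.03 to 1.68 with a median of 0.10, against -0.05 over all 44988 single-gene probe sets. In 5 of the 10 the groups did not overlap, each of the 5 with the ELK3 shRNA arrays higher, where 34.7% of all probe sets were higher and 41.2% lower without overlap. Of the 10, 9 lay under the background guide on all 4 arrays, so these counts rest on values in the background range.

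**Figure D2:**
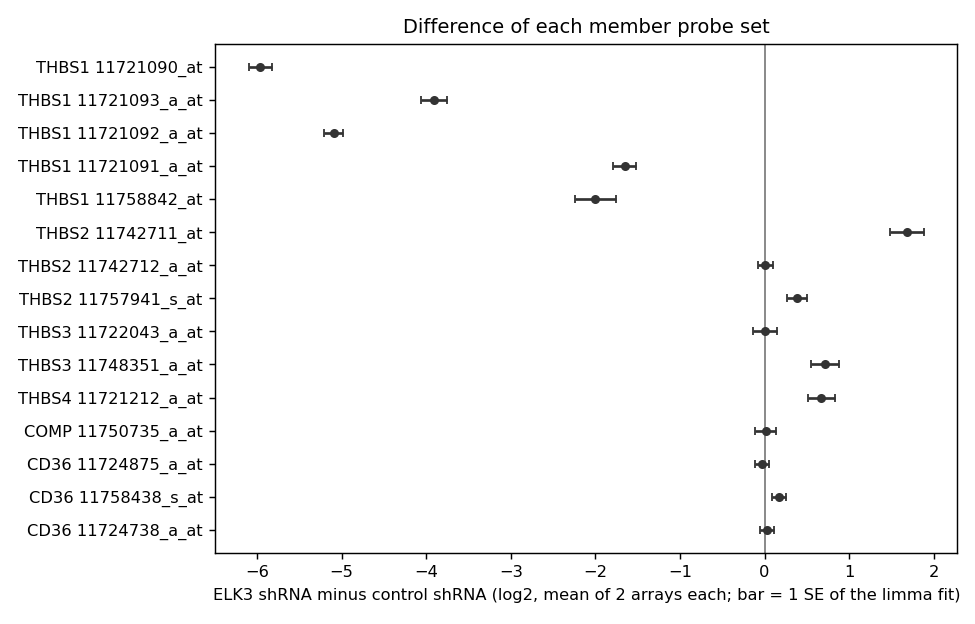
Difference of group means (ELK3 shRNA minus control shRNA, log2, horizontal axis) of each member probe set (rows), with bars of 1 SE from the limma fit. The 5 THBS1 sets lie between -5.96 and -1.65, and the 10 other sets between -0.03 and 1.68.

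Genes around THBS1 on chromosome 15 differed by far less, but most of them could not have shown a fall like that of THBS1. At their brightest probe sets RASGRP1, LINC02915 and FSIP1 lay under the background guide on all 4 arrays. LINC02694 had a control mean of 6.01, close to the guide, and only GPR176 and EIF2AK4 lay well above it. The 3 nearest measured genes on either side, looked up after the THBS1 values were known, had differences between -0.46 and 0.09, against -5.96 for THBS1. Of the 6 genes 3 were called lower by limma and none higher, where 23.5% of all genes were called lower and 26% higher. Those called were GPR176, EIF2AK4 and the non-coding gene LINC02694 (-0.26, adjusted p = 0.0358). The call of LINC02694 was lost with any array but control replicate 2 left out, and over the mean of its probe sets (0.128). GPR176, an orphan receptor gene, read 7.96 and 7.98 in control against 7.70 and 7.60 in ELK3 shRNA arrays, a difference of -0.32 (SE 0.08, adjusted p = 0.0236 from limma), and -0.48 for the mean of its probe sets. EIF2AK4, the kinase GCN2 that senses amino acid shortage, read 8.18 and 8.38 against 7.91 and 7.73, a difference of -0.46 (SE 0.11, adjusted p = 0.0218). Both calls were lost without either ELK3 shRNA array: at adjusted p = 0.0792 (replicate 1 left out) and 0.149 (replicate 2 left out) for GPR176, and at 0.0606 and 0.134 for EIF2AK4. GPR176 also lost its call without control replicate 1 (0.0629) or 2 (0.0695), EIF2AK4 without control replicate 2 (0.0865) or without cross-hybridising probe sets (-0.28, 0.134), and under the replicate block all 3 did (0.0505 for GPR176, 0.0554 for EIF2AK4, 0.0691 for LINC02694). RASGRP1, an activator of RAS, differed by -0.10 at its brightest probe set, by 0.55 over the mean of its probe sets, and by 0.03 without ELK3 shRNA replicate 1, so its direction is not settled. FSIP1, a gene named for binding fibrous sheath proteins of sperm, differed by 0.09, and by -0.05 once each array was centred on its median.

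**Figure D3:**
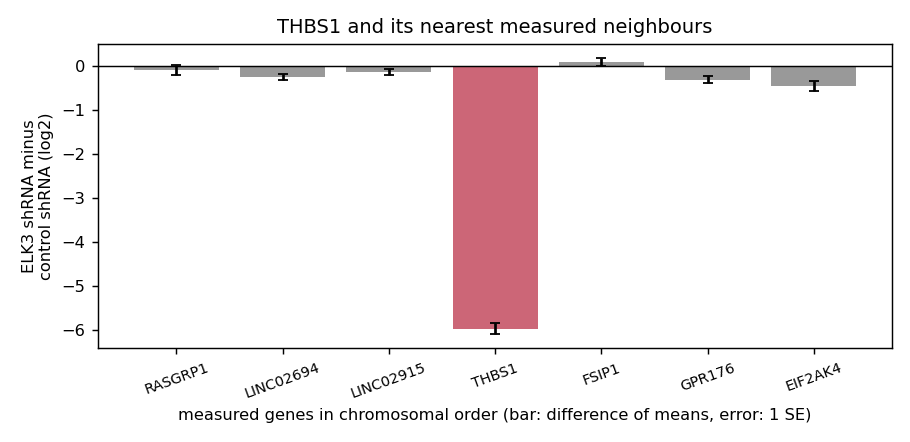
Difference of group means (ELK3 shRNA minus control shRNA, log2, vertical axis) of THBS1 (red) and its 3 nearest measured genes on either side (grey), in chromosomal order, with error bars of 1 SE from the limma fit. THBS1 stands at -5.96 and its neighbours lie between -0.46 and 0.09. RASGRP1, LINC02915 and FSIP1 lay under the background guide on all 4 arrays and could not show such a fall.

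The genes whose pattern over the 4 arrays was most like that of THBS1, by distance between log2 values after each gene's own mean was removed, were IAH1, TM4SF1, DKK1, TGM2 and ZC3HAV1L, at distances of 0.29 to 0.41. TM4SF1, a membrane protein abundant in many carcinomas, read 10.33 and 10.27 in control against 4.21 and 4.21 in ELK3 shRNA arrays. DKK1, a secreted antagonist of Wnt signalling, read 11.27 and 11.46 against 5.76 and 5.64. TGM2, the transglutaminase that cross-links matrix proteins, read 11.34 and 11.13 against 5.38 and 4.89. With 4 arrays in 2 groups, such likeness says little more than that these genes were lower by a similar amount.

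The surface receptors and partners to which thrombospondins bind were lower more often than higher. Of 12 such genes 7 were called lower and 1 higher by limma, with a median log2 difference of -0.77, where over all 18132 genes 23.5% were called lower and 26% higher and the median was -0.05. Of all calls 52.6% were thus higher, a share that became 36.6% once each array was centred on its median. Part of this list are integrins and syndecans, adhesion receptors that serve many other matrix ligands. ITGA3, the integrin alpha-3 chain, read 9.90 and 9.85 in control against 5.52 and 5.55 in ELK3 shRNA arrays, a difference of -4.33 (SE 0.07, adjusted p = 1.76e-05 from limma), with its ELK3 KD values under the guide, and the mean of its 3 probe sets differed by -2.47. ITGA6, the laminin-binding alpha-6 chain, read 11.84 and 11.84 against 8.71 and 8.49 (-3.24, adjusted p = 4.22e-05). SDC4, the heparan sulfate proteoglycan syndecan-4, read 10.63 and 10.74 against 8.10 and 8.08 (-2.59, adjusted p = 4e-05). In each of these the control arrays lay well above the ELK3 shRNA arrays, and both groups of ITGA6 and SDC4 lay well above the guide.
ITGA4, the alpha-4 chain better known from leukocytes, was the gene called higher, at 3.42 and 3.39 against 6.09 and 6.29 (2.79, adjusted p = 5.6e-05), from control values under the guide and with 1.41 for the mean of its 5 probe sets. CD47, which binds the carboxy-terminal domain of THBS1 and is the "do not eat me" signal to macrophages, read 10.14 and 10.15 against 9.63 and 9.66, a difference of -0.50 (SE 0.07, adjusted p = 0.00372), with each of its 3 probe sets lower and a difference of -0.88 for their mean. SDC1 (-2.36), ITGAV (-1.31) and ITGB1 (-1.04, and -1.59 without cross-hybridising probe sets) were called lower too. SDC1 had only probe sets annotated as cross-hybridising. CALR, LRP1, ITGB3 and CACNA2D1 did not pass the test.

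THBS1 acts on latent TGF-beta, and the genes of that complex were mostly not called. Of 8 genes 1 was called lower, 1 higher and 6 did not pass, with a median of -0.08, against 23.5% lower and 26% higher over all genes. TGFB2, a TGF-beta ligand, read 6.54 and 6.77 in control against 4.68 and 4.35 in ELK3 shRNA arrays, a difference of -2.14 (SE 0.15, adjusted p = 0.000355 from limma), with the ELK3 KD values under the guide. TGFB1, the ligand for which the action of THBS1 is best known, read 6.27 and 6.18 against 6.16 and 6.03 (-0.13, adjusted p = 0.29), and after centring it was called lower (-0.26, adjusted p = 0.0461). LTBP3, a protein that holds latent TGF-beta in the matrix, was called higher at 7.04 and 6.25 against 7.59 and 7.71 (1.00, adjusted p = 0.029), with 0.45 without cross-hybridising probe sets (0.0435) and 0.61 without control replicate 2, a call lost without ELK3 shRNA replicate 1 (adjusted p = 0.126) or replicate 2 (0.152).

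Type 1 repeats are modified by sugars in the secretory pathway, and the 4 listed enzymes were each called lower by a modest amount, with a median of -0.50, where 23.5% of all genes were called lower. B3GLCT, which adds glucose to the fucose of the repeats, read 7.86 and 7.93 in control against 7.30 and 7.37 in ELK3 shRNA arrays (-0.56, adjusted p = 0.00329 from limma). Other probe sets of B3GLCT went the other way, up to 2.59, so that the mean of its probe sets was higher by 0.88 and the brightest set that is not annotated as cross-hybridising by 1.83, and its direction is not settled. DPY19L3 (-0.54, and -0.30 for the mean of its probe sets) and DPY19L1 (-0.46), transferases that attach mannose to tryptophan, and POFUT2 (-0.37), which adds the fucose, had no probe set that was higher. The call of POFUT2 ended without control replicate 1 (adjusted p = 0.0902), ELK3 shRNA replicate 1 (0.091) or replicate 2 (0.164), and that of DPY19L1 without control replicate 1 (0.0604) or ELK3 shRNA replicate 2 (0.0823).

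Among other secreted or membrane proteins with type 1 repeats, 7 of 21 measured genes were called higher, 6 lower and 8 did not pass, with a median of 0.05. The shares over all genes were 26% higher and 23.5% lower, so the count is near the background and is no result about the list, and 9 lay under the background guide on all arrays. ADAMTS1, a secreted protease that can cleave thrombospondins and also restrains vessel growth, read 5.31 and 5.03 in control against 10.17 and 10.10 in ELK3 shRNA arrays, a difference of 4.96 (SE 0.12, adjusted p = 2.41e-05 from limma). At this probe set, annotated as cross-hybridising, ADAMTS1 thus went from background to a high level while THBS1 did the opposite. Without such sets ADAMTS1 differed by 3.46 (adjusted p = 9.79e-05 from limma). SPON1, the matrix protein F-spondin, read 4.25 and 4.76 against 7.70 and 7.26 (2.97, adjusted p = 0.000471). CCN1, a matricellular protein induced by serum and by YAP, read 12.66 and 12.60 against 10.26 and 10.10 (-2.45, adjusted p = 6.61e-05). CCN2, its relative once named connective tissue growth factor, read 12.01 and 11.90 against 10.39 and 10.23 (-1.65, adjusted p = 0.000215). Both remained far above background in ELK3 KD cells, unlike THBS1. CCN3, of the same family, differed by -1.61.

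**Figure D4:**
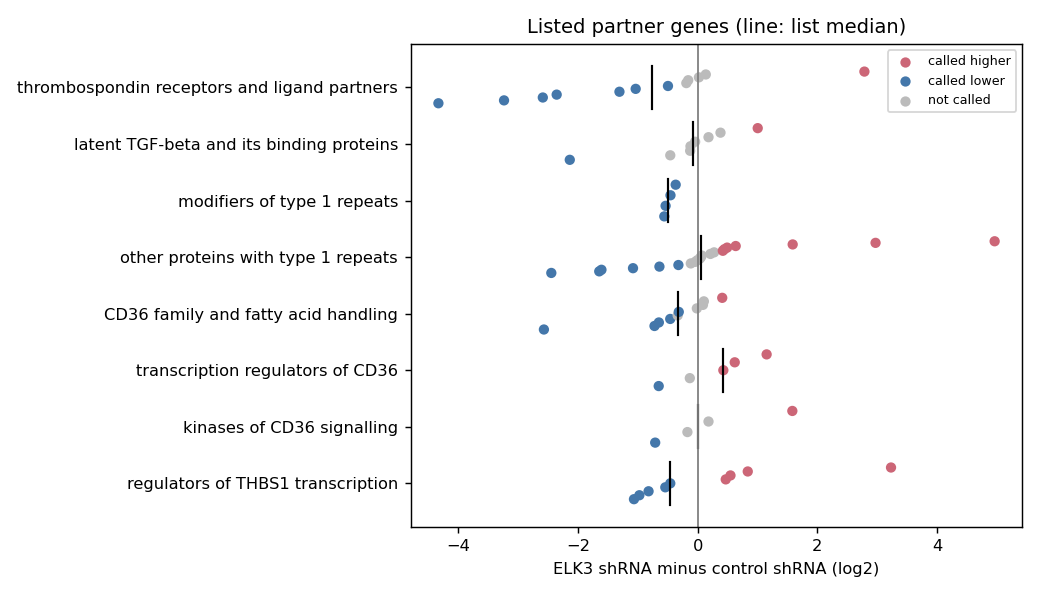
Differences of group means (ELK3 shRNA minus control shRNA, log2, horizontal axis) of the measured genes of 8 lists (rows), each point a gene read from its brightest probe set and coloured by its limma call at an adjusted p under 0.05, with a black line at the median of the list. Thrombospondin receptors and ligand partners had 7 of 12 genes lower and a median of -0.77, whereas other proteins with type 1 repeats had 7 of 21 higher and 6 lower around a median of 0.05.

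Genes of fatty acid handling, in which CD36 takes part, were measured although CD36 itself was not detectable above background. Of 10 genes 5 were called lower and 1 higher, with a median of -0.33, where 23.5% of all genes were lower and 26% higher. PLIN2, the coat protein of lipid droplets, read 9.44 and 9.57 in control against 6.80 and 7.06 in ELK3 shRNA arrays, a difference of -2.57 (SE 0.12, adjusted p = 0.000112 from limma). The fatty acid transporters SLC27A1 (-0.72, and -0.47 for the mean of its probe sets) and SLC27A4 (-0.65) and the carrier FABP5 (-0.46) were called lower by less. The only probe set of FABP5 is annotated as cross-hybridising. The calls of SLC27A1 (adjusted p = 0.104 and 0.0802) and SLC27A4 (0.0934 and 0.0913) ended without ELK3 shRNA replicate 1 or 2, and that of FABP5 without ELK3 shRNA replicate 1 (0.052). SCARB2, a lysosomal relative of CD36, was the gene called higher, at 0.41 (adjusted p = 0.0426), and its call ended without control replicate 2 (0.129), ELK3 shRNA replicate 1 (0.22) or replicate 2 (0.102).
Of 5 measured nuclear receptors that drive CD36 transcription in other cells, 3 were called higher and 1 lower, with a median of 0.43, where 26% of all genes were higher and 23.5% lower. PPARG, the receptor that induces CD36 in macrophages and adipocytes, read 8.80 and 8.34 in control against 7.98 and 7.84 in ELK3 shRNA arrays (-0.65, adjusted p = 0.0276 from limma), a call lost without ELK3 shRNA replicate 1 (0.107) or 2 (0.156), and a difference of -0.42 without control replicate 1. PPARA read 6.34 and 6.18 against 7.57 and 7.25 (1.15, adjusted p = 0.00187), but without cross-hybridising probe sets it differed by 0.06 (adjusted p = 0.634), and by 0.30 over the mean of its probe sets. Their partner RXRA differed by 0.62 (0.33 for the mean of its probe sets), and NR1H3, the oxysterol receptor LXR-alpha, by 0.43. The call of RXRA ended without ELK3 shRNA replicate 1 (0.0631), and that of NR1H3 without ELK3 shRNA replicate 1 (0.0842) or 2 (0.0838).
Of 4 measured kinases that act below CD36 in endothelial cells 1 was called higher and 1 lower, near the 26% and 23.5% of all genes. FYN, a SRC family kinase, read 7.40 and 7.33 in control against 8.92 and 8.97 in ELK3 shRNA arrays (1.58, adjusted p = 0.00013). MAPK8, the stress kinase JNK1, differed by -0.71 (adjusted p = 0.00316), and by -0.37 over the mean of its probe sets (0.0369). LYN and YES1 did not pass the test.

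All 9 measured genes known to act on THBS1 transcription were called, 4 higher and 5 lower, with a median of -0.46, where 26% of all genes were called higher and 23.5% lower. WT1, a zinc-finger factor able to repress THBS1, read 4.42 and 4.50 in control against 7.69 and 7.69 in ELK3 shRNA arrays, a difference of 3.23 (SE 0.08, adjusted p = 2.41e-05 from limma), rising from under the guide to above it, and the mean of its probe sets differed by 1.97. ID1, a helix-loop-helix inhibitor that also represses THBS1, read 11.95 and 11.96 against 10.87 and 10.90 (-1.07, adjusted p = 0.000324). These known repressors of THBS1 thus differed in opposite directions. SRF, the partner of ELK3 on DNA, read 9.18 and 9.33 against 8.18 and 8.38 (-0.98, adjusted p = 0.00147), at a probe set annotated as cross-hybridising. Without such sets SRF differed by -0.27 (adjusted p = 0.0405), and over the mean of its probe sets by -0.62. JUN, a subunit of AP-1, read 10.01 and 9.95 against 10.88 and 10.74 (0.84, adjusted p = 0.0012). YAP1, the Hippo pathway coactivator, differed by -0.82 and MYC, which can lower THBS1, by -0.54. The call of MYC ended without ELK3 shRNA replicate 1 (adjusted p = 0.0671). What these genes contribute to the THBS1 level was not tested.

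Markers of cells known for thrombospondins or CD36 were checked beside these values. Over all genes 23.5% were called lower and 26% higher by limma. None of 5 endothelial markers was called in either direction, with a summed level of 7.99 to 8.05 in control and 7.93 to 7.97 in ELK3 KD arrays (log2 of the summed values). Of 5 macrophage markers 1 was called lower and none higher (7.82 to 8.21 and 7.05 to 7.25), and of 4 adipocyte markers 1 was called lower and none higher (8.29 to 8.44 and 8.17 to 8.19). Of 6 fibroblast markers 3 were called higher and none lower (7.67 and 8.43 to 8.52), among them the collagen gene COL3A1, by 3.45 (1.85 for the mean of its probe sets), and the proteoglycan gene LUM, by 3.03. LUM, COL1A2 and DCN lay under the background guide on all arrays, COL1A1 and PDGFRB above it on all arrays. COL3A1 lay above it on the ELK3 shRNA arrays only, and the only probe set of LUM is annotated as cross-hybridising. COL1A1 was the third marker called higher (0.43, adjusted p = 0.00958 from limma), and PDGFRB, COL1A2 and DCN did not pass. As in the marker genes of HEK293 cells and of 9p21, these shifts ran between the same groups as the THBS1 difference, and their part in it was not tested.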

How the data were processed

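Total RNA of 4 cultures was measured on 1 array each. The values are log2 intensities per probe set that the authors made by RMA in Affymetrix Expression Console (version not given in the sources used here) and deposited. The paper's methods name an Illumina BeadChip, whereas the probe set names are Affymetrix ones. Genome build and coordinates come only from RefSeq (GRCh38.p14). Of 49395 probe sets, 44988 name 1 gene, and 44961 of these matched RefSeq by gene identifier.

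Genes were read from their brightest probe set (18132 genes) and compared by moderated tests (lmFit and eBayes of limma 3.58.1, R 4.3.3, no block), with Benjamini-Hochberg adjustment at 0.05. Member probe sets took their standard errors from a separate fit of the same kind over all 44988 single-gene probe sets. The fit was also run on simulated data in which few genes were changed. As far more genes were called here, that run does not vouch for these calls. No filter was set on dim genes, and RMA compresses low values, so the size of differences of dim genes is not settled. Promoter windows came from RefSeq, in which all 6 member genes matched. The number of arrays limits the precision. Figures used matplotlib 3.10.9.

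The members, gene lists and marker genes were chosen with earlier results of these data known. Named genes were the members, ELK3, up to 4 called genes per list with the largest difference, markers, and the 5 genes most like THBS1. The neighbours of THBS1, MTX1, CD47, SDC1, ITGAV, ITGB1, TGFB1, CCN3, SCARB2, YAP1 and MYC, and genes listed as not passing, were named after their values were seen. Of 78 listed partner genes 73 were measured, and the others were not analysed here. Alternatives were another summary or choice of probe sets, filter, normalization, variance prior, a replicate block, the methods' t-test and each array left out in turn.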

Additional observations from a re-analysis of the deposited data

How the results depend on the processing

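The difference of THBS1 at its brightest probe set was -5.96. Most alternatives kept this probe set and its values, so they could not change the difference. Among the others, renewed quantile normalization gave -5.96, centring gave -6.10 and the mean of its probe sets gave -3.72. With each array left out the difference ran from -6.10 to -5.82. With 2 arrays per group such a move cannot exceed the pooled SD of the groups, so it is no check of its own. Genes called by limma were 4715 higher and 4256 lower, and 18 and 30 among the listed partner genes. With single probe sets tested, which counts a gene more than once, these became 11080 and 10911, and 49 and 82. The methods' t-test after adjustment called 2574 and 2086, and 8 and 17. Centring each array on its median moved the median of all genes by -0.14 and gave 3883 higher and 6724 lower, so that 36.6% of calls were higher in place of 52.6%. Only genes above the median level left 9 listed partner genes higher. With an array left out, 3080 to 4388 genes were higher and 2430 to 3976 lower, with 10 to 17 and 20 to 29 listed partner genes; the lowest counts of all genes came without ELK3 shRNA replicate 1 (3080 and 2430), and without replicate 2 they were 3171 and 2493. An arm left with 1 array is assumed to vary like the other group.

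Among the other members, the mean of a gene's probe sets moved THBS2 from 1.68 to 0.69, THBS3 from 0.01 to 0.36 and CD36 from -0.03 to 0.06. Renewed quantile normalization turned THBS3 to -0.12, COMP to -0.03 and CD36 to 0.02, and centring gave -0.13, -0.12 and -0.17. With an array left out THBS3 ran from -0.13 to 0.14, COMP from -0.14 to 0.17 and CD36 from -0.09 to 0.02.

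Among the other named genes, directions turned for B3GLCT (0.88 with the mean of its probe sets, 1.83 without cross-hybridising ones), MTAP (2.99 with the mean of its probe sets), RASGRP1 (0.55 with the mean of its probe sets, and from -0.228 to 0.0270 with an array left out, the last without ELK3 shRNA replicate 1) and FSIP1 (-0.0509 after centring). Of 54 single genes followed, 20 lost their call under at least 1 alternative, 19 of them under the methods' t-test.

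The replicate number as a block gave 4347 genes higher and 3785 lower. In this balanced layout a block cannot change a difference of means, only its SE, which for THBS1 went from 0.13 to 0.15. The block ended 3 calls among the genes followed, all of them neighbours of THBS1. Deviations of same-numbered arrays correlated at 0.02 over 44988 probe sets and at 0.05 over the 22494 above the median level. Nothing in the labels ties the numbers. With so few arrays the correlation cannot tell whether same-numbered samples share more than a number.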
